A study of Mus musculus with 6 samples.

Results

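The AP-1 transcription factors described here are the products of 8 genes, Fos, Fosb, Fosl2, Jun, Junb, Jund, Batf and Atf3, which were measured by 11 probe sets of the 45101 on the array. A probe set was taken when the platform annotation gave it 1 gene symbol and that symbol was one of the 8. All 11 passed the filter on dim probe sets, the dimmer Jund probe set only through its Het arrays, and they are 11 of the 29507 probe sets tested. The 6 arrays hold CD4+YFP+ T cells sorted from lymph nodes, 3 from mice of the genotype FoxP3-GFP-hCre x ROSA26R-YFP with Dicerwt/lox (Het) and 3 from mice that carry Dicerlox/lox on the same alleles (KO). Cre is made where Foxp3 is active, whose product defines regulatory T cells, and YFP from ROSA26 then stays on, so the sorted cells have expressed Foxp3 and both groups carry the same Cre and reporter. Dicer cuts microRNA precursors, and the comparison asks how messenger RNAs differ in these cells when both copies of its gene, and not 1, can be cut by Cre. The labels give no age, and they letter the triplicate arrays of each group A, B and C without saying that these are separate mice, so the p-values take in only how these arrays vary, which may be technical.

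AP-1 is a family of dimers whose subunits share a basic region that contacts DNA and a leucine zipper that joins the partners. Fos proteins need a Jun partner to bind DNA, Jun proteins can also pair among themselves, and Batf pairs with Jun proteins and acts with interferon regulatory factors in T cells. Atf3 joins Jun proteins at related cyclic AMP response elements. In T cells, signals of the antigen receptor pass through MAP kinases to AP-1, and NFAT and AP-1 together switch on many cytokine genes. Fos, Fosb, Jun and Junb are immediate early genes, whose messenger RNAs appear within minutes of a stimulus and decay fast, so that handling of cells can change them too. Foxp3 also binds NFAT, which makes the balance between these partners a known point of regulation in regulatory T cells.

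The promoters of the genes whose values moved together across the arrays are shown, with that of Batf, which varied less, beside them. Each is the stretch of 250 bases before the start site (RefSeq, GRCm38.p6), on the strand of the gene, and all 8 genes matched an entry. Capitals mark TGACG, the core of the cyclic AMP response element, on either strand, and in Jun the sequence TGACATCA, the Jun and ATF binding site known from this promoter.
Fos promoter, chr12:85473640-85473889, plus strand: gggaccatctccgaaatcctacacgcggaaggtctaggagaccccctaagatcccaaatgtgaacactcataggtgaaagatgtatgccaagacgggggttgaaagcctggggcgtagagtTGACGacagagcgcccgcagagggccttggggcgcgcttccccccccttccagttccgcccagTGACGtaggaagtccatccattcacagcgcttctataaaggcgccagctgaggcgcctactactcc
Fosb promoter, chr7:19310046-19310295, minus strand: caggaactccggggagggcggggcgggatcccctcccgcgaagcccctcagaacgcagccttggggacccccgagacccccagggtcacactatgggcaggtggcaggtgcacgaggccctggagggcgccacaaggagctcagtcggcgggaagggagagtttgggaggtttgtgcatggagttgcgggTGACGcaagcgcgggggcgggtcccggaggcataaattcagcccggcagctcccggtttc
Jun promoter, chr4:95052223-95052472, minus strand: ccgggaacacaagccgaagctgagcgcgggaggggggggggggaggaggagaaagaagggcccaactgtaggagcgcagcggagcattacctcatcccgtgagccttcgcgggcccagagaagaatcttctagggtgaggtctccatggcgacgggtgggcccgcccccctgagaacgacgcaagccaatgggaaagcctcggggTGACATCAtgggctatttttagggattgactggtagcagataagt
Junb promoter, chr8:84978749-84978998, minus strand: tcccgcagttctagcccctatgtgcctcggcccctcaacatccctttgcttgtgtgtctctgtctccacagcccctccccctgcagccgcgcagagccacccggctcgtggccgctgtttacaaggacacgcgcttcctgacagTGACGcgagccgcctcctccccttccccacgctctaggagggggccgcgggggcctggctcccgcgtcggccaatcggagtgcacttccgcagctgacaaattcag
Batf promoter, chr12:85686470-85686719, plus strand: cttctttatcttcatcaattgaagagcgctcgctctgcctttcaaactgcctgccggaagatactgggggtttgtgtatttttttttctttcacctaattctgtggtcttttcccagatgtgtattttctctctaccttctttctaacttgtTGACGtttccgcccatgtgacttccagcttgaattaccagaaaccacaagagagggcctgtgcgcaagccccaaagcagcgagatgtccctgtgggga
TGACG lay in 5 of the 8 promoters and in 17.8% of 32851 promoters of the same length, on either strand. In Fos it began 129 and 66 bases before the start site, in Fosb 60, in Junb 106 and in Batf 98, and in Atf3, on the opposite strand, 7. In Jun, TGACATCA began 45 bases before the start site, and 2.93% of promoters hold it. The AP-1 site TGANTCA was not matched in any of the 8 windows (6.75% of promoters hold it), nor was the full element TGACGTCA (1.55%), which contains TGACG, nor the CArG box of serum response factor (1.47%). TATAAA was matched in Fos, 33 bases before the start, and CCAAT in Jun and Junb. These matches describe the letters of these windows and show no binding. Fos and Batf are also close on chromosome 12, where Jdp2, another AP-1 gene, was the 1 protein-coding gene listed between them (GRCm38.p6).

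Of the 11 AP-1 probe sets 0 passed an adjusted p under 0.05 (limma with Benjamini-Hochberg adjustment over all 29507 probe sets), where 1.78% of all probe sets tested passed (1.11% higher and 0.668% lower). Before adjustment, with p under 0.05, it was 1 of 11, Batf, against 19.1% of all. Yet the differences were large for several members: 6 of 11 had a log2 difference, KO minus Het, of at least 1, against 3.30% of all probe sets (4.91% differed by as much either way), and 9 of 11 were positive, against 42.8%. The median log2 difference of the 11 was 1.03 and that of all probe sets -0.035. Both rested partly on single arrays: without KO C, 2 of 11 (both of Jun) reached a log2 difference of 1 and the median was 0.40, and without Het B it was 3 of 11 and 0.56. The groups did not overlap for 5 of 11 probe sets, 4 with KO above and 1 with KO below, where 26.2% of all probe sets did not overlap (11.3% with KO above and 14.9% below). The 1 with KO below was the dimmer Jund probe set, whose order followed from the filter. Intensities below are the deposited GCRMA values on a linear scale, and log2 differences are between group means of log2 values. As the arrays hold bulk RNA, more cells with a transcript and more transcript per cell cannot be told apart.

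**Figure D1:**
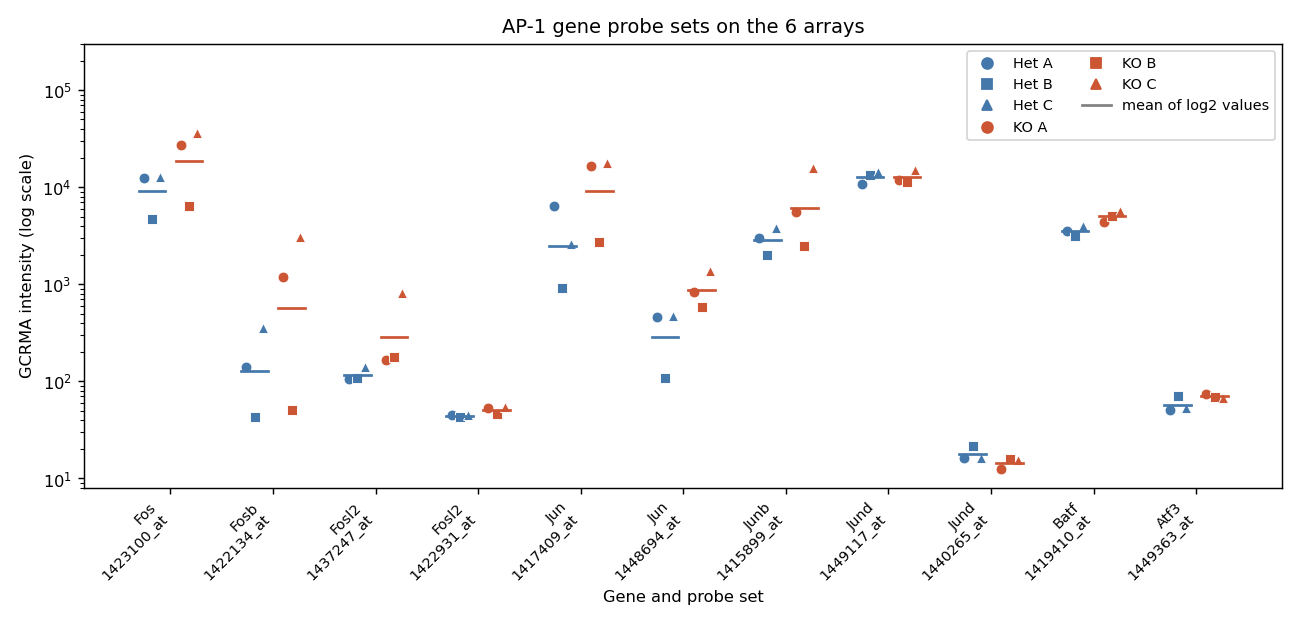
GCRMA intensity (log scale) of the 11 AP-1 probe sets on each array, Het in blue and KO in red, with circles, squares and triangles for the arrays lettered A, B and C and a bar at the mean of the log2 values of each group. For Fos, Fosb, Jun and Junb the B array is the lowest of each group, while the Batf groups do not overlap and the brighter Jund probe set reads alike in both.

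Among the Fos proteins, Fos itself read 12509, 4692 and 12676 on Het A, B and C and 27284, 6488 and 36116 on KO A, B and C. KO A and KO C were above every Het array, while KO B lay below Het A and Het C, so the groups overlapped. The group means were 9959 ± 4562 (SD, n = 3) and 23296 ± 15211, and KO minus Het on the log2 scale was 1.03 ± 0.76 (SE; adjusted p = 0.526 by limma) with a 95% interval from -0.85 to 2.92. Fosb, a close relative that is induced with Fos, read 140.7, 42.98 and 355.1 on Het A, B and C, against 1204, 50.31 and 3097 on KO A, B and C. Again both B arrays were the lowest of their group, and KO C was 61.6 times KO B. The log2 difference of Fosb was 2.15 ± 1.68 (adjusted p = 0.554), and its interval from -2.01 to 6.31 allows a fall as well as a large rise.

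Fosl2, which encodes Fra-2, had a pair of probe sets. The brighter had Het intensities of 106.1, 108.7 and 140.6 and KO intensities of 164.3, 179.6 and 824. The difference was log2 1.30 ± 0.65 (SE; adjusted p = 0.351 by limma). All KO arrays were above all Het arrays, but KO A and KO B were close to Het C and most of the difference came from KO C, without which the log2 difference was 0.55. The dimmer one read 44.68, 43.14 and 44.95 across Het and 53.83, 45.85 and 53.98 across KO, also without overlap, and differed by log2 0.21 ± 0.09 (adjusted p = 0.310). On each array it lay below the median intensity of all 45101 probe sets, tested or not, which was 58.1 to 61.5.

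Jun, the partner that Fos proteins need to bind DNA, also had a pair of probe sets. Its brighter probe set gave 6426, 917.5 and 2609 in the Het arrays and 16697, 2703 and 17668 in the KO arrays. KO A and KO C read alike and lay above every Het array, whereas KO B was below Het A. KO exceeded Het by log2 1.90 ± 1.01 on average (SE; adjusted p = 0.384 by limma; 95% interval -0.61 to 4.41). Its dimmer probe set read 459.8, 108.6 and 467.9 on Het A, B and C, against 842.8, 590.6 and 1386 on KO A, B and C, so that here all KO arrays were above all Het arrays. That difference was 1.63 ± 0.66 (adjusted p = 0.265), with an interval from -0.01 to 3.27. Both probe sets of Jun therefore differed in the same direction, by 3.73-fold and 3.09-fold, and neither passed. Without Het B, the lowest array for both, the log2 differences were 1.18 and 0.93.

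Junb, a Jun protein that supports effector regulatory T cells, had Het intensities of 3033, 2014 and 3780 and KO intensities of 5602, 2489 and 15896. KO C stood well above all other arrays, KO A was next, and KO B lay within the Het range. Junb differed by log2 1.09 ± 0.69 (SE; adjusted p = 0.462 by limma), and 0.39 without KO C. Jund, the Jun protein that is made constitutively in many cells, was read by its brighter probe set at 10931, 13335 and 14402 for Het and at 11949, 11384 and 15232 for KO. The ranges lay over each other, with a log2 difference of -0.01 ± 0.16 (adjusted p = 0.988) and a 95% interval from -0.41 to 0.39; the sign turned under other settings, median centring included (0.01). The other Jund probe set was dim: Het gave 16.28, 21.55 and 16.16, and KO gave 12.5, 15.9 and 15.41. It passed the filter (log2 above 4 on at least 3 arrays) only through its 3 Het arrays, as every KO value was under it. That all KO arrays were below all Het arrays thus followed from the filter. Its difference (log2 -0.30 ± 0.16, adjusted p = 0.393 by limma) gives no support for a fall.

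Batf, which pairs with Jun proteins and is needed by several effector T cell types, gave 3574, 3179 and 4019 in the Het arrays and 4369, 5071 and 5701 in the KO arrays. Every KO array was above every Het array, and KO B was not low here. The means were 3591 ± 420 and 5047 ± 666 (SD, n = 3), a 1.40-fold difference. On the log2 scale it was 0.49 ± 0.14 (SE; 95% interval 0.14 to 0.84), with an adjusted p of 0.148 by limma. Over 15 alternative settings the log2 difference of Batf lay between 0.40 and 0.59, and it passed the threshold in 0 of them. Atf3, a stress-induced bZIP factor, read low, with its mean level at the 24.4th percentile of the probe sets tested. Het gave 50.36, 71.35 and 53.03, and KO gave 73.44, 69.69 and 67.55. Het B fell within the KO range, and the log2 difference was 0.29 ± 0.15 (adjusted p = 0.375).

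**Figure D2:**
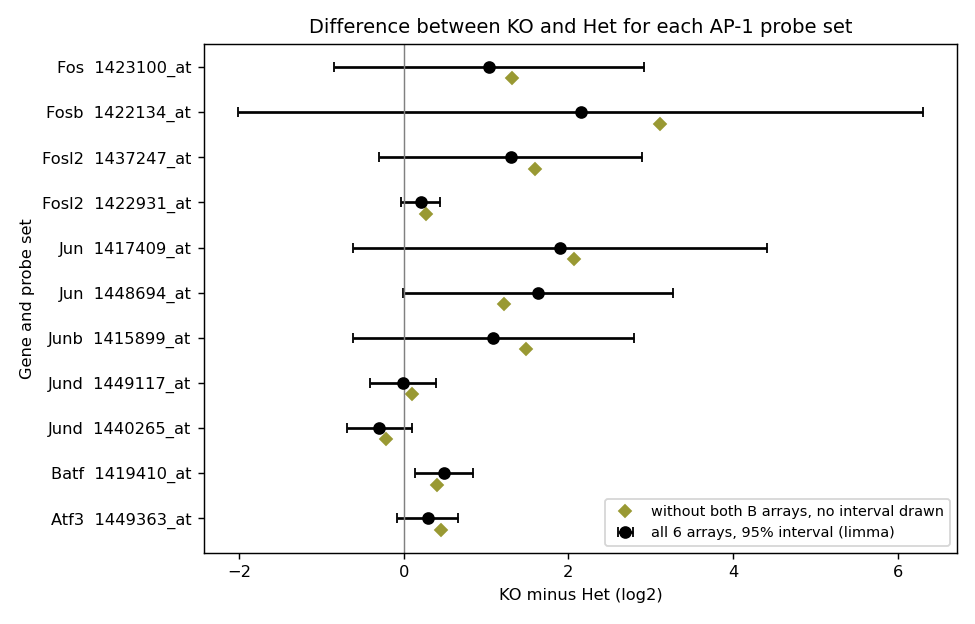
KO minus Het (log2) of each AP-1 probe set with its 95% interval (limma, 6 arrays, black) and the difference without both B arrays (olive diamonds). The intervals of Fos, Fosb, Jun and Junb span several log2 units and include 0, the interval of Batf is 0.14 to 0.84, and that of the brighter Jund probe set is -0.41 to 0.39.

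How far the members varied within a group set them apart from each other. The SD between arrays of a group, pooled over both groups on the log2 scale, was 2.45 for Fosb, 1.47 and 0.96 for Jun, 1.10 for Fos, 1.0 for Junb and 0.94 for the brighter Fosl2 probe set, where the median of all probe sets tested was 0.18. These 6 probe sets were above the 95th percentile of all. Among the 1000 probe sets nearest in level, Fos stood at the 99.8th percentile for spread, Fosb at the 99.7th, the brighter Jun probe set at the 99.9th and Junb at the 99.4th. The dimmer Jun probe set stood at the 96.9th and the brighter Fosl2 probe set at the 94.3rd. Batf, at 0.18, stood at the 65.4th percentile of its own neighbours and the brighter Jund probe set, at 0.22, at the 85.0th. The wide intervals of Fos, Fosb, Jun and Junb follow from this spread, since limma weighs each difference by it.

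**Figure D3:**
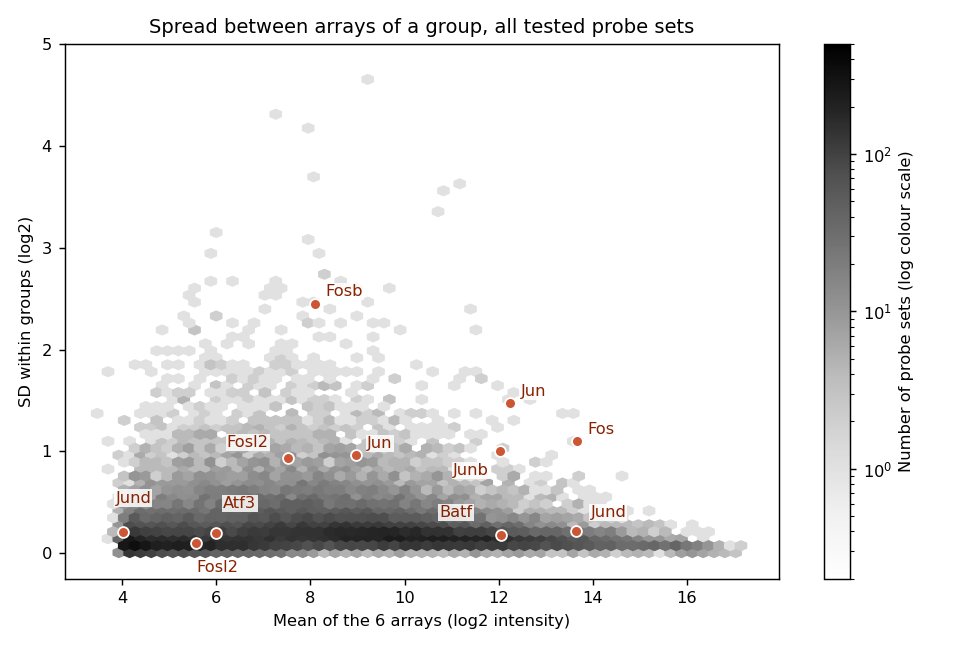
Within-group SD (log2) against the mean log2 intensity over 6 arrays for all 29507 probe sets tested (grey hexagons, darker with more probe sets) and the 11 AP-1 probe sets (red). Fosb, Fos, Jun and Junb lie above most probe sets of like intensity, and Batf, Atf3, Jund and the dimmer Fosl2 probe set lie in the main cloud.

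The same arrays were often the highest or the lowest. KO C was the highest of the 6 arrays for 9 of the 11 probe sets, against 14.2% of all probe sets tested, and Het B was the lowest for 7 of 11, against 20.5%. Both B arrays were the lowest of their own group for 6 of 11, namely Fos, Fosb, both Jun probe sets, Junb and the dimmer Fosl2 probe set, against 12.2% of all. This order was not particular to AP-1 genes. Among other immediate early genes, Ier2, Zfp36, Klf4 and Egr1 also had both B arrays lowest in their group and KO C highest. Ier2 read 7324, 5658 and 8604 on Het A, B and C, against 9722, 7514 and 16647 on KO A, B and C. Klf2, Myc, Nr4a1, Nr4a2, Nr4a3, Btg2 and Ier3, among others of that list, did not have this order, and it was not counted over the list. Without both B arrays the log2 differences became 1.32 for Fos, 3.11 for Fosb, 2.07 and 1.22 for Jun and 1.48 for Junb, with adjusted p between 0.148 and 0.322 (limma). In that fit 6 of the 11 probe sets had an unadjusted p under 0.05 and 0 passed the adjusted threshold, as did 0 of all 29507 (5274 at an unadjusted p under 0.05).

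Other measures also set the B arrays apart. Of the 2 CD8 T cell markers both were measured, and their summed intensity was 650.7 to 2257 in Het and 636.3 to 4415 in KO, highest on Het B and KO B. The sum of the 6 measured of 8 B cell markers ran from 6437 to 14036 in Het and from 6827 to 11312 in KO, also highest on the B arrays, and that of 3 of 7 NK cell markers from 1046 to 1778 and from 1651 to 5609, highest there too. The sum of 6 of 10 myeloid markers was 3104 to 4772 in Het and 5340 to 7410 in KO, and that of 5 of 6 plasma cell markers 10710 to 12002 and 15141 to 21997, so the KO arrays were above all Het arrays for both lists. These sums came mostly from their brightest genes. On Het A, Cst3 read 2786 of the myeloid 3104, and Xbp1 7859 and Irf4 2699 of the plasma cell 10710. Likewise Nkg7 read 938.5 of the NK cell 1046 on Het A, and Ighm 11522 of the B cell 14036 on Het B. By the brightest probe set of each gene, 1 of these 22 markers passed (limma): Xbp1, a factor of plasma cells and of the secretory stress response, rose by log2 0.89 (adjusted p = 0.0270). Ighm, the heavy chain gene of immunoglobulin M, gave log2 -0.55 on its brightest probe set, but 4 of its 8 tested probe sets rose, by log2 4.26 to 6.83 (adjusted p 0.0222 to 0.0263). The one with log2 6.83 had Het intensities of 28.47, 64.7 and 42.64 and KO intensities of 1870, 9468 and 6595. Each of these 4 was above all Het arrays on every KO array and highest on KO B. The rest of the tested Ighm probe sets, besides the brightest, gave log2 -0.35, -1.05 and 3.16 and did not pass. Jchain, which joins antibody subunits, had Het intensities of 11.46, 163.1 and 13.59 and KO intensities of 388.8, 3197 and 2623, without overlap (log2 5.66, adjusted p = 0.101). Other markers with a log2 difference of at least 1 that did not pass were Mzb1 of plasma cells (1.65), Cd22 (1.37) and Ms4a1 (1.15) of B cells, Lyz2 (2.09) and Cd68 (1.91) of myeloid cells, and Nkg7 (1.0) of NK cells. The remaining plasma cell markers, Sdc1 and Irf4, gave -0.09 and -0.33. The remaining myeloid ones gave 0.68 (Cst3), 0.06 (Csf1r), 0.22 (Adgre1) and 0.23 (S100a9), and those of B cells 0.23 (Cd79a), 0.42 (Cd79b) and 0.01 (Blk). Pax5, Ncr1, Itgam, Cd14 and Tnfrsf17 stayed under the filter. Markers of gamma delta T cells (1 of 4 measured) and stromal cells (5 of 7) gave 0 passing genes, and 0 of 5 erythroid markers was measured. Of 9 measured markers of regulatory and helper T cells 0 passed (3 at an unadjusted p under 0.05 by limma). Those with the smallest p were Ctla4, an inhibitory receptor of regulatory T cells, at log2 0.76 with all KO arrays above all Het arrays (adjusted p = 0.0686), and Cd3d, at -0.23 (adjusted p = 0.20). Cd4 read 4694 to 5809 in Het and 5161 to 6651 in KO, and Cd3e 13820 to 16450 and 12494 to 15246. Foxp3 read 9960, 8945 and 9769 on Het A, B and C, against 5453, 9417 and 5420 on KO A, B and C, so it was lower on KO A and KO C, where Fos and Jun were high, than on KO B.

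RNA quality and handling were read from control and heat shock probe sets. The ratio of 3' to 5' signal for beta-actin was 1.7, 1.5 and 1.93 on Het A, B and C and 1.41, 2.15 and 1.502 on KO A, B and C, highest on KO B, where Fos was lowest within KO. Within Het the beta-actin ratio was lowest on Het B, where Fos was lowest, and highest on Het C, where Fos (12676) was close to its value on Het A (12509). The ratio for Gapdh was 1.326, 1.372 and 1.492 on Het A, B and C and 1.235, 1.589 and 1.312 on KO A, B and C. It was also highest on KO B and Het C, but within Het it was lowest on Het A. Of 11 measured heat shock genes 0 passed by limma, with 1 higher and 1 lower where p before adjustment was under 0.05, and with a median log2 difference of -0.09. Hspe1, a mitochondrial chaperonin, gave log2 -0.57 (adjusted p = 0.0618) and Hspa5, the chaperone of the endoplasmic reticulum, 0.53 (adjusted p = 0.20). The heat shock gene Hspa1b had Het intensities of 5152, 1052 and 859.3 and KO intensities of 4040, 261.2 and 2866, so its order over the arrays was lowest on KO B but highest on Het A. The part of other cells, of Foxp3 level, of RNA quality and of handling in the AP-1 values was not tested.

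Of other immediate early genes, 19 of 19 listed were measured, and 0 rose, 3 fell and 16 did not pass (limma; 1.37% of all genes measured rose and 0.956% fell, 2.33% together). The difference was nevertheless positive for 13 of the 19, with a median of log2 0.23. Before adjustment 4 were higher and 3 lower with p under 0.05 (limma), where 19.1% of all probe sets had such a p in either direction. Egr2 and Egr3, zinc finger factors induced by antigen receptor signals, fell: Egr2 from 12777 ± 2177 (SD, n = 3) to 5877 ± 664 (log2 -1.11, adjusted p = 0.0424) and Egr3 by 0.64 on the log2 scale (adjusted p = 0.0373). The other probe set of each did not pass by limma, with log2 -0.77 for Egr2 (adjusted p = 0.0527) and -0.20 for Egr3 (adjusted p = 0.34), where it was dim. Npas4, an activity-induced factor, fell from 408.4 ± 187 to 14.6 ± 3.20 (adjusted p = 0.0222 by limma). Its KO values of 18.21, 13.38 and 12.17 were near the floor of the GCRMA values, and those of KO B and KO C were under the filter. Npas4 was thus tested mainly through its Het arrays, and the size of its fall is uncertain.

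**Figure D4:**
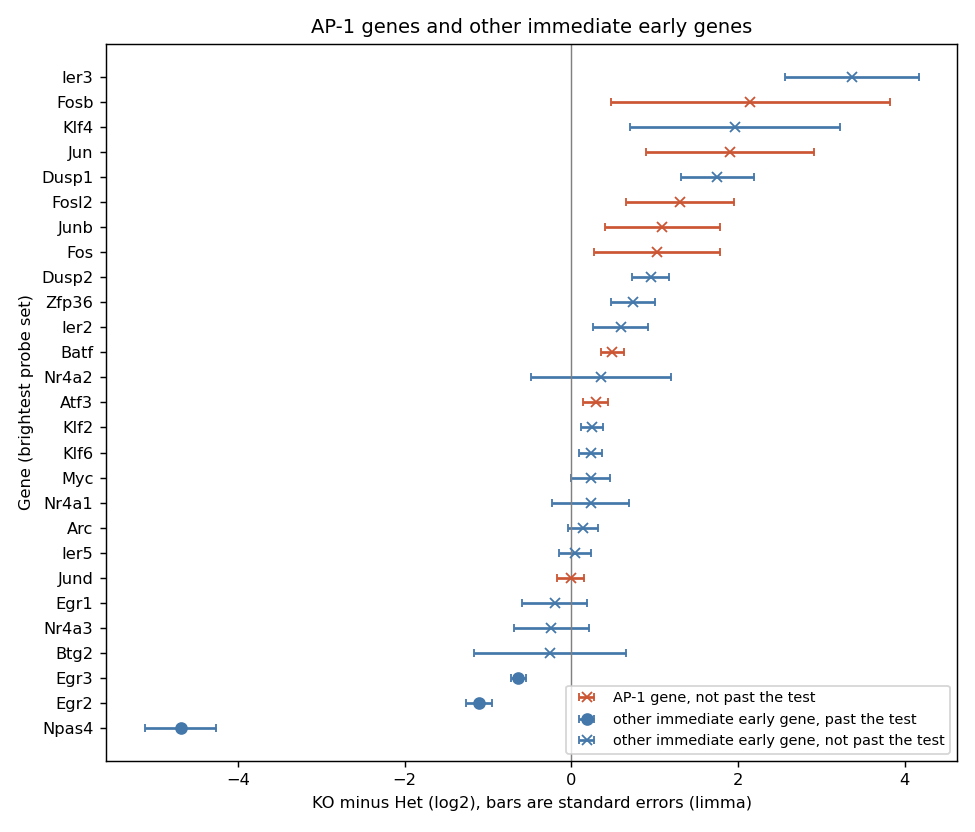
KO minus Het (log2) with standard errors (limma) for the 8 AP-1 genes (red, brightest probe set) and 19 other immediate early genes (blue), circles for genes past an adjusted p of 0.05 and crosses for the rest. Npas4, Egr2 and Egr3 are lower and past the test, and Fosb, Jun, Fosl2, Junb and Fos lie to the right without passing.

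The phosphatases that switch off MAP kinases, which act upstream of AP-1, were listed with the Sprouty genes, and of the 15 measured 0 passed by limma. The difference was positive for 9 of 15, with a median of log2 0.07, and before adjustment 4 were higher and 0 lower with p under 0.05, where 19.1% of all probe sets had such a p in either direction. Dusp2 gave 6988, 5478 and 5792 in the Het arrays and 12502, 8696 and 14785 in the KO arrays (log2 0.95, adjusted p = 0.0988), and Dusp5 gave 0.81 (adjusted p = 0.105). Dusp1, named after its values were seen, read 7684, 4108 and 5476 on Het A, B and C, against 21637, 10291 and 29273 on KO A, B and C (log2 1.75, adjusted p = 0.116). All KO arrays of these 3 genes were above all Het arrays, and the B array was the lowest of both groups for each of them. Dusp10, also among the 4 higher before adjustment, had KO intensities of 1543, 2289 and 3695, so within KO it was lowest on KO A (log2 1.31, adjusted p = 0.134 by limma).

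Of 22 measured Ras and MAP kinase genes, 1 rose and 21 did not pass, where 1.37% of all genes rose and 0.956% fell. Before adjustment 3 of the 22 were higher and 4 lower with p under 0.05 (limma). Map3k5, which encodes the stress kinase ASK1 upstream of Jun kinases, rose from 1564 ± 97.9 to 2648 ± 88.0 (SD, n = 3; limma, adjusted p = 0.0253), and its other probe set rose too (log2 0.94, adjusted p = 0.0264). The median log2 difference of these genes was 0.00, against -0.031 for all 13280 genes. Of the 4 measured serum response and ternary complex factors, which drive Fos and Egr promoters, 0 passed by limma (before adjustment 1 was lower with p under 0.05), with Elk3 at log2 -0.63 (adjusted p = 0.148) and Elk1 at -0.16. Of 10 measured genes of Jun protein turnover 0 passed by limma (before adjustment 2 were higher with p under 0.05). Fbxw7, a ubiquitin ligase subunit that marks Jun, gave log2 0.55 (adjusted p = 0.104) and Ndfip2, an adaptor of the ligase Itch, 0.24 on its brighter probe set and -0.14 on the other.

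Among other bZIP genes 18 of 23 listed were measured, of which 2 rose, 0 fell and 16 did not pass, with a median log2 difference of 0.29. Over all genes 1.37% rose and 0.956% fell. Before adjustment 5 of the 18 were higher and 1 lower with p under 0.05 (limma). Nfe2l2, the gene of the oxidative stress factor NRF2, rose from 1283 ± 79.4 to 2862 ± 30.1 (SD, n = 3; limma, adjusted p = 0.0170) and on its dim probe set by log2 0.62 (adjusted p = 0.0498). Cebpb, a factor of inflammatory gene expression, rose from 1108 ± 114 to 4772 ± 2063 (adjusted p = 0.0429), and its other probe set gave log2 1.73 (adjusted p = 0.205). Jdp2, the gene between Fos and Batf that encodes a partner of Jun, had Het intensities of 141.1, 253.6 and 268.6 and KO intensities of 305.2, 401.4 and 312.7 (log2 0.66, adjusted p = 0.277). Fosl1, Batf2 and Batf3, the remaining Fos and Batf relatives, stayed under the filter, with highest values of 8.08, 9.10 and 21.4 on any array.

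Of the DNA binding partners of AP-1, 1 of 11 measured genes rose and 10 did not pass, where 1.37% of all genes rose and 0.956% fell. Before adjustment 4 of the 11 were higher and 1 lower with p under 0.05 (limma). Runx3, a factor of cytotoxic and Th1 cells, rose from 1136 ± 132 to 2685 ± 254 on its brighter probe set (SD, n = 3; limma, adjusted p = 0.0232), while the other gave log2 0.31. Irf4, the partner of Batf on composite sites, gave 2699, 3195 and 4026 in the Het arrays and 2012, 3358 and 2563 in the KO arrays (log2 -0.33, adjusted p = 0.508), with overlapping groups. Of 15 measured T cell genes with described AP-1 sites, 2 rose, 0 fell and 13 did not pass, and the median log2 difference was 1.10. Before adjustment 9 of the 15 were higher and 0 lower with p under 0.05 (limma), where 19.1% of all probe sets had such a p in either direction. Interferon gamma (Ifng), a Th1 cytokine, rose from 206.4 ± 33.0 to 839.3 ± 233 (adjusted p = 0.0263) and Il10, an anti-inflammatory cytokine, from 131.2 ± 53.9 to 1042 ± 504 (adjusted p = 0.0462). Il10 was also the 1 of 9 measured genes of the Batf dependent regulatory T cell list that rose, and before adjustment 5 of the 9 were higher and 0 lower with p under 0.05 (limma). The gene lists were written with earlier results of these arrays known and give no separate support.

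The calls of the 9 genes in these lists depended on single arrays. Of them 1 remained without Het A (Npas4), 2 without KO A (Nfe2l2 and Npas4) and 0 without any of Het B, Het C, KO B or KO C (limma), although all 9 kept their direction in each fit. By likeness over the 6 arrays (Pearson's r of log2 values among 23975 probe sets with 1 symbol, a description with no test), the genes nearest to Fos were Tomm20 (0.988) and Septin6 (0.987). Tomm20 ranged only from 13826 to 15709, so its shape and not its size was like that of Fos. Nearest to Batf were Hspa4l and Irf2bp2 (0.997 each), and Irf2bp2 read 3075, 2542 and 3605 on Het A, B and C, against 4536, 5538 and 7023 on KO A, B and C (log2 0.88, limma, adjusted p = 0.101). The gene targeted by Cre, Dicer1, averaged 1113 ± 78.5 in Het (SD, n = 3) and 1090 ± 85.1 in KO on one probe set and log2 -0.52 (adjusted p = 0.145) on the other. The position of these probes against the floxed exon was not analysed here, so Dicer1 does not check the labels.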

How the data were processed

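The values are probe set intensities that the authors deposited on a linear scale, normalized with GCRMA per the labels, in a version not stated there. Per the labels' protocols, RNA was taken up in TRIzol and amplified by MessageAmp II. GCRMA removes a background predicted from the probes' bases, which pushes dim probe sets toward a floor. From 45101 probe sets, 64 controls and 1 with missing values were left out, log2 was taken, and the 29507 with log2 above 4 on at least 3 arrays were tested. The groups were tested with limma 3.58.1 (lmFit and eBayes, R 4.3.3), without covariates and two-sided, at a Benjamini-Hochberg adjusted p under 0.05. With 3 arrays a group, the number of arrays limits the precision.

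Symbols came from the platform annotation, and 13280 genes were measured; listed genes are given by the probe set with the highest mean log2 value. From each list related to AP-1, up to 6 genes past the threshold were named, or the 2 with the smallest p, with Dicer1, Foxp3 and Cd4 as checks. Dusp1, Dusp10, Jdp2, Irf4, Hspa1b, Fosl1, Batf2, Batf3 and the other cell type markers were chosen for naming once their values were known. So were Ier2, Zfp36, Klf4, Egr1, Klf2, Myc, Nr4a1, Nr4a2, Nr4a3, Btg2 and Ier3. The members, lists and tests were chosen with earlier results of these data known. Plots were drawn with matplotlib 3.10.9. Alternatives were leaving out arrays, a replicate block, other filters, quantile normalization, median centring, a value of 16 added before log2, array weights, robust estimation with an intensity trend and, for the lists, averaging the probe sets of each gene.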

Additional observations from a re-analysis of the deposited data

How the results depend on the processing

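In each of the alternatives tried, 0 of the 11 AP-1 probe sets passed the threshold (limma; 1 to 6 had an unadjusted p under 0.05), and 10 kept their sign; under the stricter filter the dim Fosl2 and Jund probe sets were not tested. The brighter Jund probe set turned from -0.01 to 0.01 with median centring, 0.06 with array weights and 0.10 without both B arrays, and lay between -0.13 and 0.08 without 1 array (0.02 when Het B was left out, 0.08 for Het C or KO B, 0.04 for KO A); the cause was not tested. Leaving out 1 array moved Fos between 0.55 and 1.79, Fosb between 0.93 and 3.90, and Junb between 0.39 and 1.73, each lowest without KO C and highest without KO B, and the Jun probe sets between 1.18 and 2.79 and between 0.93 and 1.98, lowest without Het B; Fos was at 0.56 without Het B. The 525 probe sets called in all became 0 to 176 without 1 array, 0 without both B arrays and 957 with array weights; the count of listed genes called went from 9 to 0 to 3 (at most 2 of them among the 9) and 0 in the first and second of these. With a replicate block on the letters, 0 probe sets and 0 listed genes passed (limma; 5365 probe sets at an unadjusted p under 0.05), and Fos gave log2 1.03 at adjusted p = 0.174. Over all probe sets, the deviations of same-lettered arrays from their group means gave r = 0.283 for A, -0.171 for B and 0.0118 for C. Those of unlike letters ran from -0.451 to 0.374, so these values cannot settle whether the letters mark pairs. As the labels do not say so, the letters were not taken as pairs. Dim probe sets near the GCRMA floor have uncertain folds.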
